A study of Mus musculus with 8 samples.

Results

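The core promoters of autosomal protein-coding genes were followed in 8 ATAC-seq peak lists from mouse bone marrow. ATAC-seq uses the Tn5 transposase to cut accessible DNA, and a peak marks a stretch where sequenced fragments pile up. A promoter peak was a peak on chromosomes 1 to 19 whose summit, the base with the highest pileup, lay within 1 kb of an annotated transcription start site (TSS) of a protein-coding gene, on the mm10 build. Where a gene had several such peaks in a list, the one with the highest −log10 p represented it. Of 20807 autosomal protein-coding genes, 14526 had a promoter peak in at least 1 list, 10922 had one in all 8 and 6281 had none. The 8 lists held 109557 promoter peaks among 501728 peaks on the autosomes and the X chromosome.

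The libraries came from female mice 4.5 months old on a mixed 129Sv4/Jae and C57BL/6J background. WT mice were compared with XistΔ/Δ mice, in which floxed Xist, the non-coding RNA that silences the inactive X chromosome, was deleted by Vav-iCre, a recombinase under the Vav1 promoter that is active throughout the hematopoietic system. From each genotype, 2 fractions of lineage-depleted, c-Kit+ bone marrow were sorted, namely LSK+ (positive for Sca-1, the fraction with stem and multipotent progenitors) and LSK- (without Sca-1, mostly committed myeloid and erythroid progenitors), with 2 libraries in each of the 4 groups. Replicate 1 and replicate 2 of every group came from different sequencing runs. No source used here ties a library to a single animal, so the tests measure the spread between these libraries.

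A core promoter is the short stretch around a TSS where general transcription factors and RNA polymerase II assemble. Promoters of widely expressed genes are usually rich in CpG dinucleotides and free of nucleosomes, and they carry binding sites for factors such as SP/KLF proteins, ETS proteins, NRF1, YY1 and the trimeric CCAAT-binding factor NFY. Many genes lie head to head with a neighbour on the opposite strand, and such divergent pairs can share 1 accessible region.

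The strongest promoters give a view of the sequence at the summit. Each stretch below is the GRCm38 (mm10) reference from RefSeq, read 5′ to 3′ on the strand of the gene, and covers 150 bases centred on the median summit over the 8 lists, upstream of the TSS and outside annotated exons. Capitals mark the GC box of SP/KLF proteins (GGGCGG), the CCAAT core of NFY (CCAAT) with its longer form (AGCCAAT), and the RUNX motif (TGTGGT), each searched on both strands, and the longer NFY form contains the core. The first 6 belong to the 10 promoters with the highest median rank.
Qdpr, chr5:45450340-45450489, minus strand: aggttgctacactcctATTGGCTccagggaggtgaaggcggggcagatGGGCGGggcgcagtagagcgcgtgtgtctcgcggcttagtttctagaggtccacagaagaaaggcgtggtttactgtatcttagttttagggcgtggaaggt
Osbp, chr19:11965452-11965601, plus strand: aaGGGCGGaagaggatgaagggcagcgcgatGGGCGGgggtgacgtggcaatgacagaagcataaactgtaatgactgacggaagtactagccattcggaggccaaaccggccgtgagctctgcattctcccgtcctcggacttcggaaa
Pja2, chr17:64332076-64332225, minus strand: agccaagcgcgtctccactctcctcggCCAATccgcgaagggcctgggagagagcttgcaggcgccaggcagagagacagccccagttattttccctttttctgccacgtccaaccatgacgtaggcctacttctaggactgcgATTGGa
Evi5l, chr8:4166171-4166320, plus strand: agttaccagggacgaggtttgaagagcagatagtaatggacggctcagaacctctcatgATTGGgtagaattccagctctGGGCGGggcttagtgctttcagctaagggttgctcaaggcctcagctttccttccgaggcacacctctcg
G3bp1, chr11:55469412-55469561, plus strand: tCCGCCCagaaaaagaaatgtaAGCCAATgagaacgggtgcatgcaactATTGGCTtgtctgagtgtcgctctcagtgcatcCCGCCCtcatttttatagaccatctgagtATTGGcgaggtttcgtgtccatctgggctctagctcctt
Tomm40, chr7:19715597-19715746, minus strand: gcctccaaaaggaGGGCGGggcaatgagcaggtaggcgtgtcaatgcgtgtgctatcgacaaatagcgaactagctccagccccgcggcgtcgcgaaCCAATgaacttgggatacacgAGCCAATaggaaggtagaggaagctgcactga
The next stretch fills the 95 bases between the TSSs of the divergent pair Kctd9 and Cdca2, shown on the strand of Cdca2 because the pair shares 1 strong peak, and the last is the promoter of Sla2, which ranked higher in LSK+ than in LSK- cells.
Kctd9/Cdca2, chr14:67715842-67715936, minus strand: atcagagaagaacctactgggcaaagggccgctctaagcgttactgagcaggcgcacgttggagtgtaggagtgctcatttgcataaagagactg
Sla2, chr2:156887206-156887355, minus strand: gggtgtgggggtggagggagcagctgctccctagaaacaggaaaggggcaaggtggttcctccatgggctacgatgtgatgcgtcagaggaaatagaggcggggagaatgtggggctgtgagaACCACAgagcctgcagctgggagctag

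Summits sat just upstream of the TSS. The median summit distance was between −47 bp and −27 bp in the 8 lists, where a negative value lies upstream, and 53.8% to 64.3% of the genes with a promoter peak had their summit within 100 bp of a TSS. Between 62.8% and 69.7% of summits lay upstream.

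**Figure D1:**
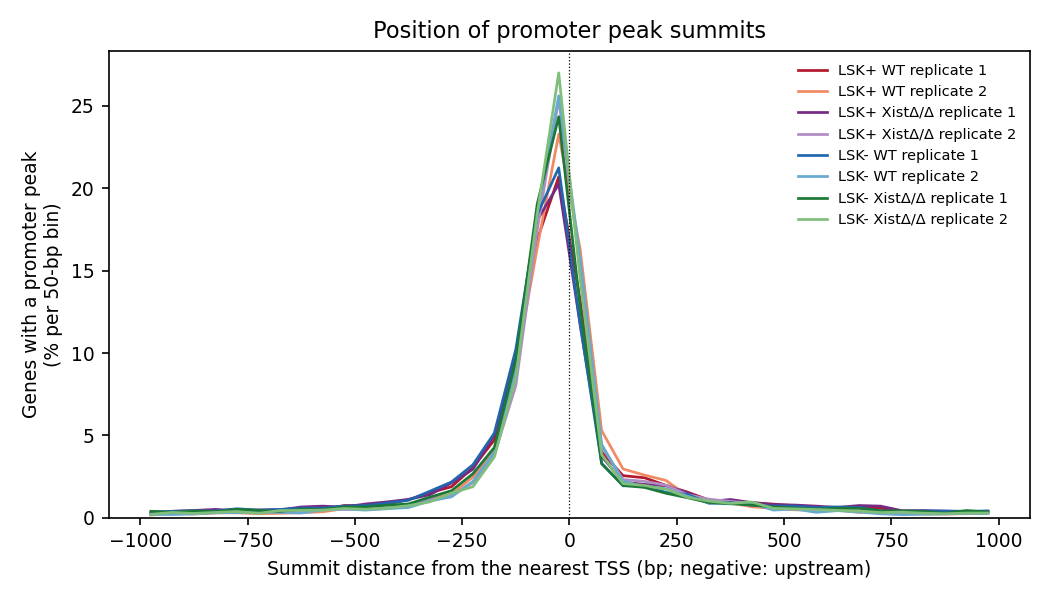
Distance of the promoter peak summit from the nearest TSS of its gene, in 50-bp bins, as a percentage of the genes with a promoter peak in each of the 8 lists (1 line per library, colours as in the key). Every curve peaks in the bin just upstream of the TSS, and the medians lie between −47 bp and −27 bp.

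The number of genes with a promoter peak was 13210 and 11953 in the LSK+ WT libraries (replicates 1 and 2), 13655 and 13593 for XistΔ/Δ LSK+, 12556 and 11951 for WT LSK-, and 13281 and 13091 for XistΔ/Δ LSK-. The 4 XistΔ/Δ libraries thus had more than the WT library of the same cell type and replicate in 4 of 4 pairs, by 988 genes on average (pooled SD within groups 498, n = 4 against 4; two-sided exact permutation test p = 0.0556, which is the smallest p that the 36 assignments allow; adjusted p = 0.156 over 14 tests). The lists differed in length, from 29829 to 91590 peaks, and the list of each XistΔ/Δ library was longer than that of its WT counterpart. When every list was shortened to its 29829 strongest peaks, the difference became −230 genes (exact permutation p = 0.611). LSK+ libraries had 383 more genes with a promoter peak than LSK- libraries (exact permutation p = 0.333), again with the higher value in 4 of 4 pairs.

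Promoter peaks made up 16.3% to 40.005% of the autosomal peaks, and the shortest list, that of LSK+ WT replicate 2, had the highest share. Among the autosomal peaks above the 90th list percentile, 54.1% to 92.3% were promoter peaks. A list percentile was used, which ranks each peak by −log10 p within its own list from 0 to 100. It still depends on the length of the list.

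The median list percentile over genes with a promoter peak was 82.9 and 78.3 for WT LSK+, 83.7 and 87.3 for XistΔ/Δ LSK+, 85.8 and 83.6 for WT LSK-, and 90.5 and 88.7 for XistΔ/Δ LSK-. Counted by distinct peaks, promoter peaks outranked other autosomal peaks in every library, with medians 37.0 ± 4.29 percentile points apart (SD, n = 8 libraries; range 30.4 to 41.2; exact sign-flip permutation test p = 0.00781, the same value after adjustment over 5 tests). The median was 4.92 points higher in XistΔ/Δ than in WT libraries (4 of 4 pairs; exact permutation p = 0.0556, adjusted p = 0.156) and 4.08 points lower in LSK+ than in LSK- libraries (−4.08; 0 of 4 pairs above 0; exact permutation p = 0.0556, adjusted p = 0.156). With labels exchanged in 36 ways, p = 0.0556 is the smallest value this exact permutation test allows. With every list shortened to its 29829 strongest peaks, XistΔ/Δ minus WT was 0.469 points (exact permutation p = 0.778) and LSK+ minus LSK- was −3.82 points (exact permutation p = 0.111). The share of promoter peaks among autosomal peaks was lower in XistΔ/Δ than in WT libraries in every pair, by a mean of −8.49 percentage points (exact permutation p = 0.222), and by −1.03 points with the shortened lists. The study lists a greater sequencing depth for the XistΔ/Δ library of every pair, and the part of depth in these differences was not tested.

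X-linked promoters ranked lower than autosomal ones in each of the 8 lists. The gap between the medians ran from −9.32 points in LSK+ WT replicate 1 to −3.96 points in LSK- XistΔ/Δ replicate 1, over 492 of 948 X-linked protein-coding genes with a promoter peak in at least 1 list.

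The 10 promoters with the highest median list percentile were those of Hjurp (99.99), Gm10800 (99.99), Qdpr (99.98), Osbp (99.97), Cggbp1 and Zfp654 (99.97, a divergent pair with 1 shared peak), Pja2 (99.96), Evi5l (99.96), Tomm40 (99.96) and G3bp1 (99.95). Hjurp encodes the chaperone that deposits the centromeric histone CENP-A, Qdpr a reductase that regenerates tetrahydrobiopterin, Osbp an oxysterol-binding protein, Tomm40 the import channel of the outer mitochondrial membrane and G3bp1 a stress granule protein. The summit pileup at Qdpr, solved from the fold enrichment and p of each peak, was 275 and 207 fragments for WT LSK+, 427 and 434 for XistΔ/Δ LSK+, 337 and 397 for WT LSK-, and 804 and 396 for XistΔ/Δ LSK-. At Gm10800, a predicted gene with a peak of 342 bp in the median, the local background used by the peak caller was 17.1 to 44.8 times the genome-wide level of the same library, against 11.2 to 17.9 times at Qdpr. Peaks were not filtered here for stretches that gather excess reads, and whether the Gm10800 peak marks an open promoter was not tested. No control library was used in peak calling, so the local background of a strong peak contains the peak's own surroundings: its median over single promoters was 3.06 to 4.37 times the genome-wide level and over other autosomal peaks 1.3 to 1.66 times. Fold enrichment and p are measured against this local background.

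Sequence composition differed between promoters with and without a peak. In the 300 bases from 250 before to 50 after the gene's 5′ end, the median ratio of observed to expected CpG was 0.76 for the 10922 promoters present in all 8 lists, 0.45 for the 3604 promoters in 1 to 7 lists and 0.16 for the 6281 with none. The GC box was found in 62.4%, 42.5% and 11.9% of these groups, against 43.7% of all 20807 promoters. The ETS motif (CCGGAAG) was found in 18.2%, 4.08% and 2.56% (all promoters 11.03%), the NRF1 motif (GCGCATGC) in 5.63%, 1.55% and 0.748% (all promoters 3.45%) and the YY1 motif (AAGATGGC) in 4.56%, 1.03% and 1.19% (all promoters 2.93%). The TATA box (TATAAA, 40 to 15 bases before the 5′ end, gene strand only) went the other way, with 0.742%, 2.25% and 5.64% (all promoters 2.48%). So did the GATA motif (AGATAA), with 6.32%, 9.6% and 16.4%, and the RUNX motif, with 12.6%, 16.04% and 19.9%. The PU.1 motif (GAGGAAGT) did so slightly, with 3.06%, 3.33% and 3.57%. The CCAAT core did not separate these groups, with 38.97%, 33.9% and 40.6% (all promoters 38.6%). Its longer form AGCCAAT was found in 10.996%, 7.19% and 6.3%.

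Among the promoters present in all 8 lists, the CCAAT core was, of the motifs searched, the one whose share differed most in percentage points between weak and strong promoters. Within 100 bp of the median summit, and with these promoters split into 4 equal classes by median list percentile (2730 or 2731 promoters each), it was found in 18.1% of class 1, the lowest, in 24.8% of class 2, in 36.4% of class 3 and in 56.7% of class 4, the highest, against 34.0% of all 10922. The longer form AGCCAAT was found in 4.47%, 5.93%, 11.5% and 21.8%. The ETS motif peaked in the middle of the range, at 10.5%, 21.1%, 23.0% and 17.7%, and the GC box went from 59.1% in class 1 to 69.0% in class 4.

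The same count was made for every peak of each list, promoter or not. With the peaks of a list split into 4 equal classes in the same way, promoter peaks in class 1 held a CCAAT core in 14.7% to 17.9% of cases and those in class 4 in 35.1% to 40.3%, and the ranges over the 8 libraries did not overlap. Other autosomal peaks held it in 18.7% to 21.2% in class 1 and in 19.5% to 26.4% in class 4. The longer form AGCCAAT was more frequent in class 4 in both kinds of peak, without overlap of the ranges. Promoter peaks held it in 1.88% to 2.99% in class 1 and 11.6% to 14.2% in class 4. For other autosomal peaks the ranges were 2.12% to 2.59% and 3.08% to 7.77%. The median GC content of these windows was 58.2% to 65.2% in class 1 and 62.2% to 66.7% in class 4 of promoter peaks. A match is a stretch of letters and not a measured binding event.

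**Figure D2:**
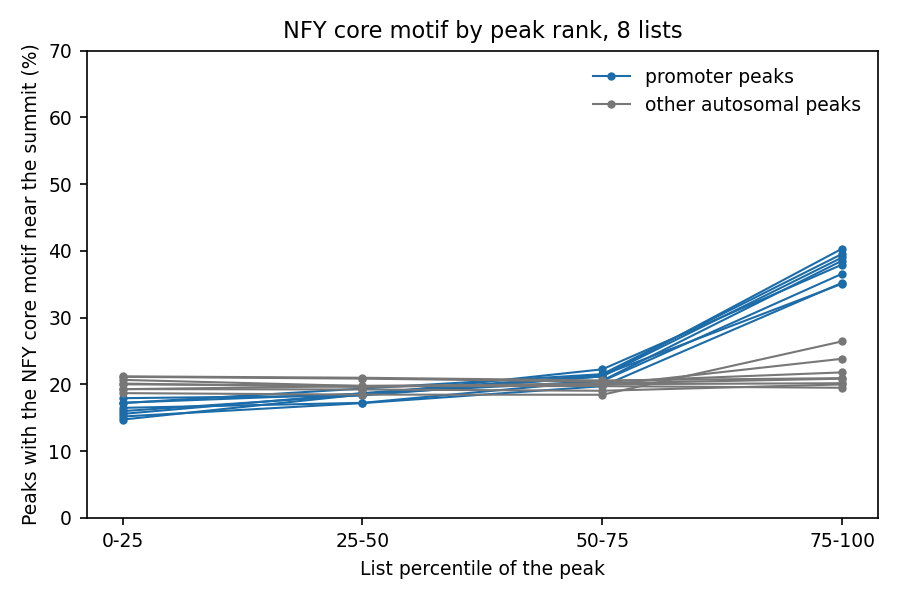
Share of peaks with a CCAAT core within 100 bp of the summit (vertical axis, percent) by 4 equal classes of the list percentile, weakest to strongest (horizontal axis), with 1 line for each of the 8 libraries; promoter peaks are blue and other autosomal peaks grey. The promoter lines end between 35.1% and 40.3% in the strongest class, and the grey lines between 19.5% and 26.4%.

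Of the 20807 genes, 2244 had a TSS within 1 kb of a protein-coding TSS on the opposite strand (divergent), 16108 had no TSS of another gene within 1 kb (single) and 2455 had another kind of neighbour. The divergent genes formed 1143 pairs, of which 907 lay head to head without overlap, with a median of 130 bp between the TSSs. In 1022 pairs both genes had a promoter peak in all 8 lists, and in 93.9% of these pairs both genes were represented by the same peak in every list. Divergent partners are thus mostly 1 measurement. In head-to-head pairs with a shared peak, the summit lay between the 2 TSSs in 53.2% to 61.6% of cases, by library.

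Divergent promoters more often had a peak, ranked higher and were wider than single ones in every library. A promoter peak was present at 92.9% to 95.2% of divergent genes and at 50.0% to 59.1% of single genes, a difference of 39.2 ± 2.89 percentage points (SD, n = 8 libraries; exact sign-flip permutation test p = 0.00781). A peak counted for every gene with a TSS within 1 kb of its summit, so a divergent gene could owe its peak to its partner. The share was not recounted with each shared peak taken once. Of the olfactory receptor genes 1 of 1128 was divergent, of the vomeronasal receptor genes 1 of 326 and of the keratin genes 0 of 110. These families nearly all lacked a peak. Among genes with a peak, the median list percentile of divergent genes was 91.9 and 87.4 for WT LSK+, 92.8 and 93.5 for XistΔ/Δ LSK+, 94.0 and 90.1 for WT LSK-, and 95.9 and 93.8 for XistΔ/Δ LSK-. For single genes the same medians were 79.2 and 74.4, 80.1 and 84.5, 82.6 and 80.7, and 87.9 and 86.2. The 2 sets of medians differed by 10.5 ± 2.22 points (range 7.59 to 12.9; exact sign-flip p = 0.00781). Counting each shared peak once left the difference at 10.1 points.

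**Figure D3:**
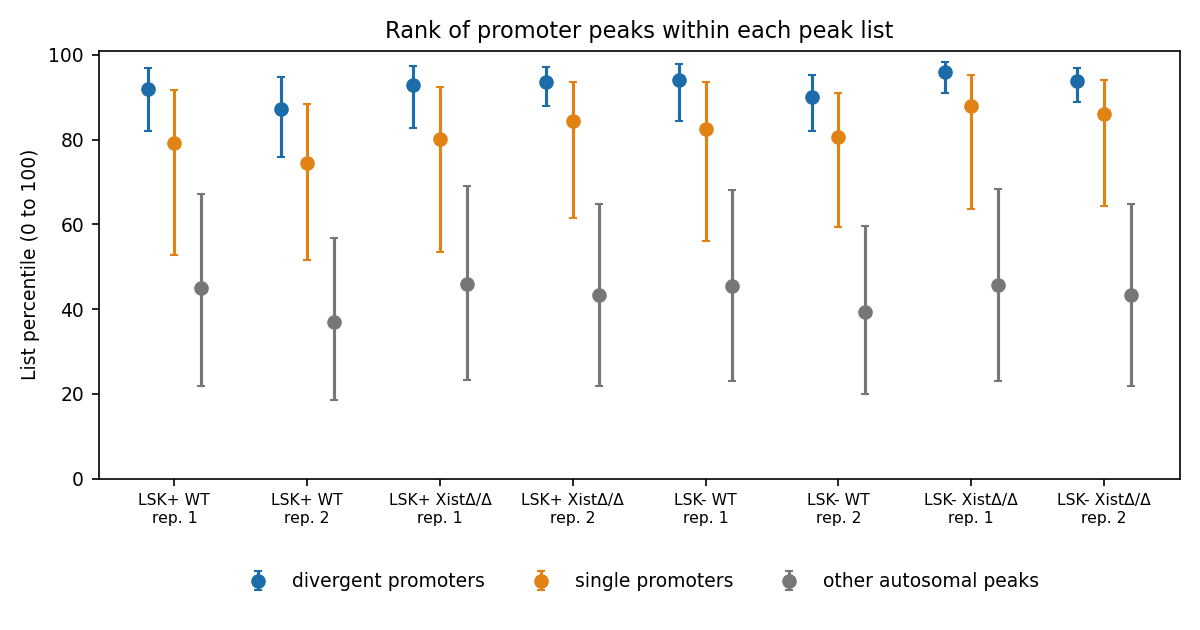
List percentile (vertical axis, 0 to 100, where 100 is the strongest peak of a list) of divergent promoters, single promoters and other autosomal peaks in each of the 8 libraries; points are medians and bars span the interquartile range. Divergent promoters had the highest median in every library, 87.4 to 95.9, and other autosomal peaks the lowest, 36.9 to 45.9.

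Divergent promoters also held more CpG (median observed to expected ratio 0.83 against 0.73 for single promoters present in all 8 lists), more ETS motifs near the summit (26.4% against 16.02%, all 18.1%) and more CCAAT cores (39.8% against 32.3%). Promoters present in all 8 lists were also split into 3 equal classes of CpG content. In each class the divergent medians remained above the single ones in 8 of 8 libraries. The mean difference was 8.74 points in the CpG-poorest class (420 divergent and 2721 single genes), 5.06 in the middle class and 4.17 in the CpG-richest class. The difference given before covered every gene with a peak in a list, so these values do not measure a part due to CpG.

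The advantage of divergent promoters was 2.72 points larger in LSK+ than in LSK- libraries (larger in 4 of 4 pairs; exact permutation p = 0.0556, adjusted p = 0.156), and −2.25 points in XistΔ/Δ relative to WT libraries (exact permutation p = 0.111, adjusted p = 0.259).

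The 5 strongest divergent pairs were Zfp654 and Cggbp1, Kctd9 and Cdca2, Cdnf with each of 2 overlapping neighbours, Gm45902 and Hspa14, and Srgap2 and Fam72a. Cdca2 encodes a phosphatase regulator on mitotic chromatin and Hspa14 a ribosome-associated HSP70. The lower of the 2 median list percentiles was 99.97 for the first pair and 99.92 for the last.

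The median width of promoter peaks was 795 bp and 624 bp for WT LSK+, 800 bp and 666 bp for XistΔ/Δ LSK+, 726 bp and 590 bp for WT LSK-, and 862 bp and 594 bp for XistΔ/Δ LSK-. Replicate 1 was wider than replicate 2 in 4 of 4 groups, by 134 to 268 bp. XistΔ/Δ minus WT was 46.8 bp (pooled SD within groups 131 bp; exact permutation p = 0.444) and LSK+ minus LSK- was 28.2 bp (exact permutation p = 0.667). Within replicate 1 the genotype difference was 70.5 bp and within replicate 2 it was 23 bp.

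Promoter peaks were 315 ± 39.6 bp wider than other autosomal peaks in the median (SD, n = 8 libraries; range 257 to 397 bp; exact sign-flip permutation test p = 0.00781). Divergent promoters were 174 ± 31.9 bp wider than single ones (range 134 to 225 bp; exact sign-flip p = 0.00781), with medians of 697 to 1033 bp against 550.5 to 808 bp. Across genes, width and list percentile of the same peak correlated with a Spearman rho of 0.41 to 0.559 by library, a description over genes that share a library.

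**Figure D4:**
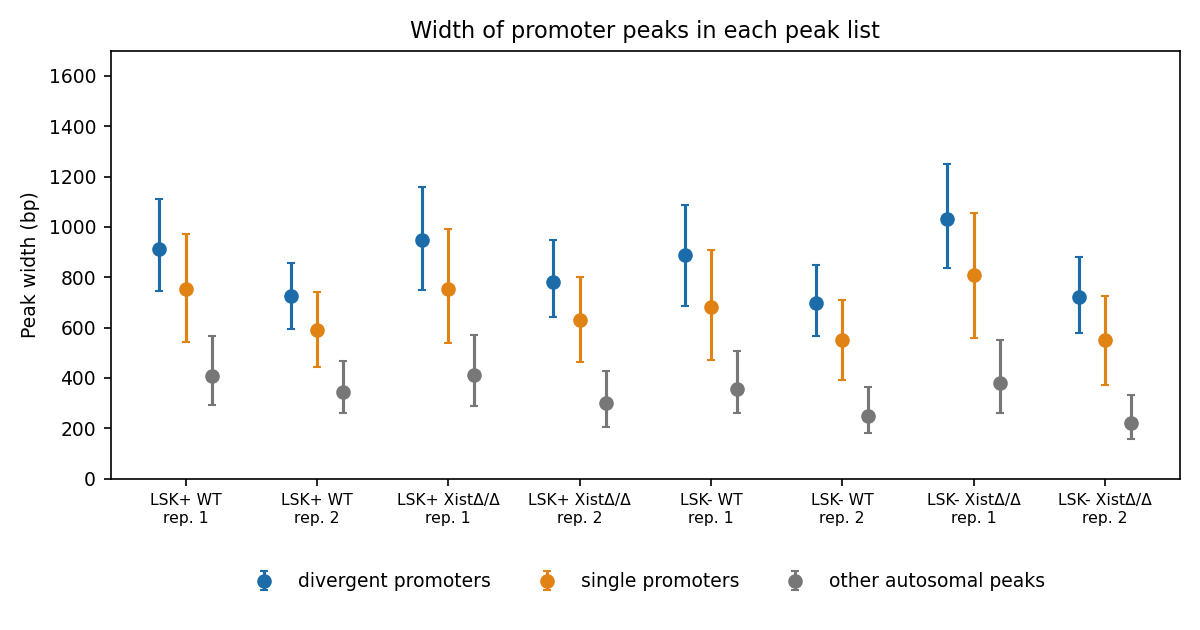
Peak width (vertical axis, bp) of divergent promoters, single promoters and other autosomal peaks in each of the 8 libraries; points are medians and bars span the interquartile range. Divergent promoters had the largest median width in each library, and the replicate 1 libraries had larger promoter medians than the replicate 2 libraries of the same group.

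The widest promoters by median were those of Hist2h2ac and Hist2h2be (2022 bp, a divergent pair of histone genes that share the peak), Kctd12 (1922.5 bp), Hsp90ab1 (1884 bp, a cytosolic chaperone), U2af2 (1850.0 bp, a splicing factor), Tnik (1849.5 bp), Ldha (1793 bp, lactate dehydrogenase), Ankrd10 (1784 bp), Hmga1 (1776 bp, a chromatin architectural protein) and Agbl5 (1755.5 bp). Some were wide in every list and some were not. Kctd12 ran from 1853 to 2009 bp over the 8 libraries, whereas Ldha was 1986, 1913, 2040 and 2043 bp in the replicate 1 libraries and 1673, 1040, 634 and 581 bp in the replicate 2 libraries, and the 2 sets did not overlap.

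Gene groups with housekeeping roles were almost completely accessible. Against 52.5% of all autosomal protein-coding genes, a promoter peak in all 8 lists was found at 73 of 76 genes of cytosolic ribosomal proteins (median list percentile 93.0, against 88.7 over all promoters present in 8 lists), 78 of 78 of mitochondrial ribosomal proteins (89.5), 45 of 47 of the proteasome (93.2), 87 of 95 of the respiratory chain (91.3), 45 of 47 of the spliceosome (93.1), 90 of 92 of RNA polymerase and general factors (91.3), 61 of 65 translation factors (90.6), 37 of 37 of replication licensing and forks (95.2), 34 of 34 tRNA synthetases (93.3) and 25 of 25 of mitosis (94.7). Divergent arrangements were found for 41.0% of the mitochondrial ribosomal protein genes and 31.6% of the respiratory chain genes, against 10.8% of all genes.

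Within these groups the promoters spanned a wide range. Among cytosolic ribosomal proteins, Rpl27 was highest (99.5), Rps23 lay in the middle (93.0) and Rpl4 was lowest (73.4). The list percentile of Rpl4 was 86.8 and 56.5 for WT LSK+, 76.7 and 70.2 for XistΔ/Δ LSK+, 90.1 and 55.9 for WT LSK-, and 89.0 and 70.0 for XistΔ/Δ LSK-. Its replicate 1 values lay above the replicate 2 values in every group. In other groups the highest and lowest members were Mrpl18 (99.7) and Mrpl53 (55.5), Psmd8 (99.03) and Psmg3 (66.4), Atp5g1 (99.6) and Ndufb10 (62.8), Lsm4 (98.9) and Lsm7 (72.5), Med19 (99.8) and Gtf2a1l (54.2), Eif2ak3 (99.8) and Eif4e3 (57.6), Gins2 (99.9) and Pola2 (77.8), Lars (99.7) and Iars2 (73.7), and Mad2l1 (99.4) and Aurkb (66.8).

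Genes of other tissues nearly all lacked a promoter peak. Of 1128 olfactory receptor genes 7 had a promoter peak in all 8 lists and 1085 in none, of 326 vomeronasal receptor genes 1 had one in all 8 lists and 325 in none, and of 110 keratin genes 0 had one in all 8 lists and 103 in none. The 1 vomeronasal gene, Vmn1r4, had a divergent neighbour within 1 kb, and its list percentile was 96.6 to 99.5. Olfr646 had the highest value of the olfactory receptors (93.2), with the summit at −764 bp from the TSS. Zinc finger genes lay between, with 293 of 385 in all 8 lists (median 87.1) and 48 in none, from Zfp654 (99.97) to Zfp365 (17.7).

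The markers of the sorted fractions were then set beside these values. Of 8 genes chosen as LSK+ markers, 6 or 7 had a promoter peak in every library of either fraction, while Ly6a, which encodes Sca-1 itself, had none in any list. Of 7 autosomal LSK- markers, 2 to 5 had one in LSK+ libraries and 5 to 7 in LSK- libraries. Klf1, the erythroid activator, had none in the 4 LSK+ libraries and list percentiles of 69.4, 43.5, 86.3 and 30.6 in the LSK- libraries. Of 12 autosomal markers of mature lineages, 2 to 4 had a peak in LSK+ and 4 or 5 in LSK- libraries, and the lymphoid markers Cd3e, Cd4, Cd8a and Cd79a had none in any list. In bulk libraries, fewer cells of a type and less accessibility per cell cannot be told apart.

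Promoter ranks were compared gene by gene over the 10922 promoters with a peak in all 8 lists. The promoter rank is the percentile of a gene among these promoters in its own library, so a shift shared by all promoters drops out. Libraries that differed only in replicate number had a median absolute gap of 8.46 to 12.05 rank points, those that differed only in cell type 4.81 to 7.58 and those that differed only in genotype 4.37 to 6.15. Libraries of different replicate number thus differed more than libraries of different cell type or genotype.

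Without a term for the run, limma called 0 promoters (0% of 10922) between LSK+ and LSK- cells at an adjusted p under 0.05, with 779 at an unadjusted p under 0.05. With the replicate number as a block, limma called 619 promoters (5.67%), of which 332 ranked higher in LSK+ (3.04%) and 287 ranked higher in LSK- cells (2.63%), with 2550 at an unadjusted p under 0.05. The 619 calls were made in the blocked fit only, and the genes below were chosen from it by the size of the difference among those whose 4 LSK+ and 4 LSK- values did not overlap. Fits that leave out a library reuse the libraries that chose the 619, so a kept direction there is not independent support. All 619 kept their direction when any single library was left out, but the number called then ran from 43 to 707. It was 46 without LSK+ XistΔ/Δ replicate 1, 43 without LSK- XistΔ/Δ replicate 1 and 123 without LSK- WT replicate 1.

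The 10 largest differences toward LSK- cells included Sptb and Epor. The promoter rank of Sptb, which encodes the β-spectrin of the red cell skeleton, was 1.29 and 0.211 for WT LSK+, 1.45 and 2.2 for XistΔ/Δ LSK+, 47.7 and 30.3 for WT LSK-, and 54.0 and 30.4 for XistΔ/Δ LSK-. The LSK+ minus LSK- difference was −39.3 ± 4.44 rank points (SE; adjusted p = 0.000453, limma with the block). Epor, the erythropoietin receptor, ranked at 27.3, 7.27, 17.2 and 32.4 among LSK+ libraries, against 55.9, 55.5, 61.3 and 66.99 among LSK- libraries (−38.9 ± 6.17, limma adjusted p = 0.0035). With promoters ranked by fold enrichment in place of p, the Epor difference was −15.9 and was not called (limma adjusted p = 0.372). The Epor summit lay 901 bp downstream of the nearest TSS, near the edge of the window.

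Other promoters that ranked higher in LSK- cells belonged to Tmcc2 (8.93, 14.3, 13.7 and 21.5 in LSK+ against 91.0, 55.8, 83.4 and 47.6 in LSK-) and Slc14a1, the urea transporter of red cells (11.1, 8.57, 16.9 and 3.64 against 70.1, 34.8, 75.2 and 39.3). With the 5′ end of the gene as the only TSS, the difference of Tmcc2 was −4.95 and was not called (limma adjusted p = 0.45), against −54.8 with all its TSSs. In both genes the 4 LSK+ values lay below all 4 LSK- values, which the choice of these genes required. Within LSK- the replicate 1 libraries had the higher ranks.

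The largest difference in this direction was that of Mt1, a metallothionein that binds zinc and copper, with ranks of 4.57, 2.93, 13.9 and 28.5 in LSK+ and 58.6, 62.4, 72.8 and 79.1 in LSK- libraries (−55.8 ± 5.42, limma adjusted p = 0.000155). Within each cell type the XistΔ/Δ values of Mt1 were above the WT values. Other promoters with large differences in this direction were Atp1b2 (−42.6), a sodium pump subunit, Hdac7 (−42.0), a class IIa histone deacetylase, Slc17a4 (−39.2), with its summit 849 bp downstream of the TSS, and Tent5a (−38.9), a cytoplasmic poly(A) polymerase.

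The 10 largest differences toward LSK+ cells included Lat, Sla2 and Fndc11. Lat, which encodes the linker that carries signals from the T cell receptor, had ranks of 87.2 and 60.2 for WT LSK+, 89.2 and 69.9 for XistΔ/Δ LSK+, 19.5 and 19.6 for WT LSK-, and 23.5 and 23.9 for XistΔ/Δ LSK- (55.0 ± 6.24, limma adjusted p = 0.000453). Sla2, an adaptor that restrains antigen receptor signalling, had 83.7, 46.7, 88.4 and 42.4 against 13.3, 10.3, 6.41 and 6.23 (56.2 ± 7.21, limma adjusted p = 0.00112). The RUNX motif marked in its sequence above lies within the 150 bases around the summit. Fndc11, a gene with a fibronectin type III domain, showed the largest difference, with ranks of 82.0, 79.5, 89.5 and 74.4 against 16.1, 31.6, 14.7 and 11.5 (62.9 ± 6.12, limma adjusted p = 0.000155).

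The remaining promoters of this direction were those of Atp2b2 (50.5), a plasma membrane calcium pump, Ptafr (44.3), the receptor for platelet-activating factor, S100a4 (44.1), a calcium-binding protein, Pstpip1 (43.5), a cytoskeletal adaptor of leukocytes, F2rl3 (43.2), a thrombin receptor, Tmem173 (39.8), the innate immune sensor STING, and Adam22 (39.4). Ranked by fold enrichment, Pstpip1 (21.2, limma adjusted p = 0.167), F2rl3 (16.5, limma adjusted p = 0.114) and Ptafr (27.5, limma adjusted p = 0.0971) were not called. For F2rl3 the groups were the closest, with 28.1 as the highest LSK- and 29.3 as the lowest LSK+ rank.

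**Figure D5:**
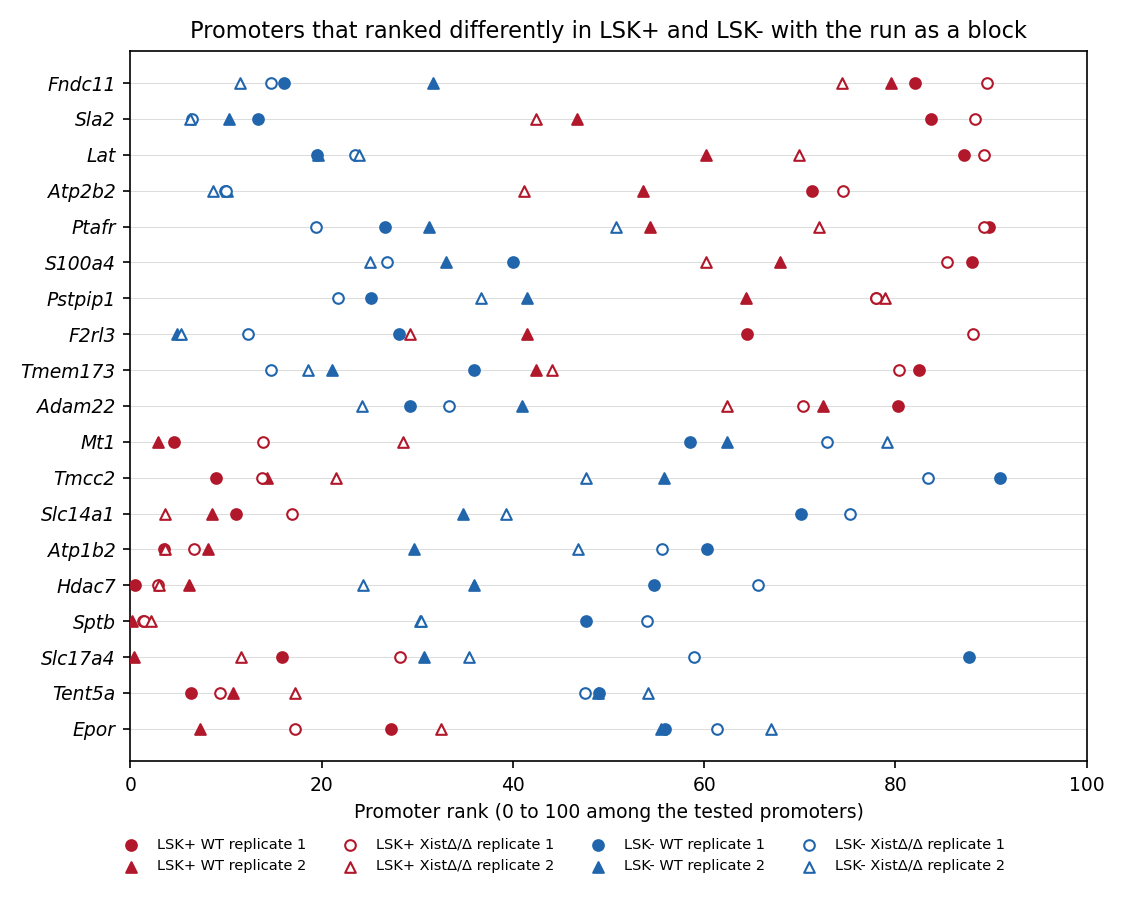
Promoter rank (horizontal axis, 0 to 100 among the 10922 tested promoters) of genes with the largest differences in each direction between LSK+ (red) and LSK- (blue) libraries, from the fit with the run as a block; filled symbols are WT, open symbols XistΔ/Δ, circles replicate 1 and triangles replicate 2. For Fndc11 the LSK+ libraries sit between 74.4 and 89.5 and the LSK- libraries between 11.5 and 31.6.

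Called promoters were spread unevenly over the promoter classes. Of 2051 tested divergent genes 2.49% were called in the blocked fit, against 6.55% of 7210 single genes. By mean promoter rank, in 4 equal classes, 8.31% of the lowest class and 3.33% of the highest class were called. The promoters that ranked higher in LSK+ had a median observed to expected CpG ratio of 0.49 and those that ranked higher in LSK- one of 0.78, against 0.76 over the 10922.

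Near the summit, the PU.1 motif (GAGGAAGT) was found in 26 of the 332 promoters that ranked higher in LSK+ (7.83%) and in 4 of the 287 that ranked higher in LSK- cells (1.39%), against 2.55% of all 10922. The RUNX motif was found in 13.9% and 8.36% (all 7.75%), the GATA motif (AGATAA) in 3.61% and 4.88% (all 2.38%), the ETS motif in 5.72% and 19.5% (all 18.1%) and the CCAAT core in 29.2% and 29.3% (all 34.0%). PU.1, RUNX and GATA proteins are lineage factors of blood cells. The called promoters were not matched to the 10922 for CpG content or rank, and the cause of these shares was not tested.

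Among the gene groups, called promoters can be read against the 5.67% of the blocked fit. Most of these calls depended on single libraries and on the ranking: of 41 called members, 2 were still called without LSK+ XistΔ/Δ replicate 1, 4 without LSK- XistΔ/Δ replicate 1, 8 without LSK- WT replicate 1 and 13 when ranked by fold enrichment, where 5 (Rps12, Meis1, Klf2, Zfp13 and Olfr646) changed sign. Of 12 tested erythroid and megakaryocytic genes, 4 ranked higher in LSK- (among them Epor, Sptb and Ank1) and 1 higher in LSK+ cells (Pf4). Ank1, which anchors spectrin to the membrane, had ranks of 1.35, 0.577, 1.85 and 0.961 in LSK+ against 26.5, 26.9, 29.3 and 10.2 in LSK- libraries. Pf4, a platelet chemokine, had 24.8, 5.89, 36.05 and 23.6 against 14.1, 3.18, 6.81 and 5.65, and its groups overlapped.

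Of 18 tested stem cell regulators, 4 ranked higher in LSK+ (Meis1, Flt3, Robo4 and Myct1) and 1 higher in LSK- cells (Mllt3). Ranked by fold enrichment, Flt3 differed by 0.53 (limma adjusted p = 0.985), Meis1 by −10.2 (limma adjusted p = 0.365) and Myct1 by 7.21 (limma adjusted p = 0.469), none of them called, and Mllt3 was not called with the 5′ end of the gene as the only TSS (−9.98, limma adjusted p = 0.304). Robo4, a receptor of stem cells and endothelium, had ranks of 57.6, 17.6, 57.3 and 20.0 in LSK+ and 7.33, 9.48, 8.41 and 5.54 in LSK- libraries. Flt3, a receptor of multipotent progenitors, had 36.2, 71.8, 49.5 and 66.0 against 8.19, 62.2, 17.1 and 41.0, so the groups overlapped between runs but not within the pairs of 1 run. Mllt3 had 16.5, 48.8, 31.4 and 44.9 against 66.6, 60.2, 73.1 and 54.7.

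The other groups of blood cell and response genes held 0 to 2 calls each. Of 14 tested interferon response genes, Stat2 and Irf1 ranked higher in LSK+, of 22 immediate early genes Klf2 ranked higher in LSK+ and Atf3 higher in LSK-, of 4 lymphoid genes Notch1 ranked higher in LSK+, and of 8 granulocyte and monocyte genes 0 were called. Atf3 had ranks of 2.45, 2.15, 2.24 and 10.98 in LSK+ and 33.6, 27.2, 47.8 and 44.6 in LSK- libraries (−33.8 ± 3.88, limma adjusted p = 0.000453). Cenpa ranked higher in LSK+ and Mki67 higher in LSK- of 25 mitosis genes, and 0 of 37 replication genes and 0 of 45 spliceosome genes were called.

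In the housekeeping groups other than mitosis, the share of called promoters was near or below the 5.67% over all promoters, from 0% to 6.67%. For mitosis it was 8% (2 of 25). The promoters that ranked higher in LSK- cells were Rps12, Rpsa and Rpl38 of 73 cytosolic and Mrpl34, Mrpl3 and Mrpl45 of 78 mitochondrial ribosomal proteins, Ndufs5 and Ndufb10 of 87 respiratory chain genes, Eif1, Eif4ebp1 and Eif4enif1 of 61 translation factors, Med4 of 90 polymerase and general factors and Cars of 34 tRNA synthetases. Of 45 proteasome genes Psma1 and Psmg3 ranked higher in LSK- and Psmb4 higher in LSK+. Rps12 had ranks of 61.5, 76.3, 70.3 and 87.6 in LSK+ against 88.6, 90.8, 89.0 and 95.8 in LSK- libraries, without overlap, but ranked by fold enrichment it differed by 1.45 in the other direction (limma adjusted p = 0.952). Rpsa (−5.99) and Rpl38 (−7.58) were not called in that ranking either (limma adjusted p = 0.645 and 0.535). Of 293 zinc finger genes 6 ranked higher in LSK+ (Zfp37, Zfp467, Zfp93, Zfp607a, Zfp612 and Zfp13) and Zfp609 ranked higher in LSK-. Olfr646 was the 1 olfactory receptor called, with higher ranks in LSK+ cells.

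Promoters with a peak in 1 cell type alone were outside these fits. A promoter peak was found in all 4 LSK+ and no LSK- libraries for 51 of 14526 genes (0.351%) and in all 4 LSK- and no LSK+ libraries for 23 (0.158%). Split by run, the same count gave 36 genes (0.248%) in all replicate 1 lists alone and 14 (0.0964%) in all replicate 2 lists alone. The LSK- peaks had a median list percentile of 57.8 and the LSK+ peaks of 22.9, so the latter lay nearer the end of their lists. With every list shortened to its 29829 strongest peaks the counts were 59 and 25, and 0 of the 51 LSK+ genes and 9 of the 23 LSK- genes remained among them. The shortened lists of replicate 2 gave 273 genes with a peak in all 4 of them alone.

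Of the 23 LSK- promoters, the following were named after their values were seen. Car1, the carbonic anhydrase of red cells, had list percentiles of 95.1, 86.2, 97.0 and 86.5 in the LSK- libraries. Trim10, an erythroid ubiquitin ligase, had 94.8, 76.3, 94.8 and 80.9. Hbb-bs, a β-globin gene, had 79.1, 55.7, 84.1 and 36.5, and Rhag, the Rh-associated glycoprotein, had 53.9, 46.1, 80.2 and 35.5. Hbb-bt, chosen beforehand as a marker of mature lineages, had no promoter peak in any list. The 23 also held Camp, a peptide of neutrophil granules, and genes such as Cyp4b1, Mmp27 and Cryba4. Ushbp1 had the highest median, 97.0, with its summit at −994.5 bp from the TSS. The 51 LSK+ promoters included Sfrp1, a secreted WNT antagonist, with 62.2, 36.4, 55.0 and 59.9, Pdk4, a kinase that restrains pyruvate dehydrogenase, with 77.0, 51.6, 66.8 and 47.6, and the lymphoid genes Ikzf3 and Mme, with medians of 9.72 and 10.7.

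Between the genotypes, no autosomal promoter passed the test. For XistΔ/Δ minus WT, limma called 0 of 10922 promoters (0%), with 53 at an unadjusted p under 0.05, and with the block it called 0, with 704 at an unadjusted p under 0.05 (6.45%). The lowest p with the block belonged to Ssr1, a subunit of the translocon-associated complex of the endoplasmic reticulum, with ranks of 26.9 and 53.7 for WT LSK+, 41.1 and 73.1 for XistΔ/Δ LSK+, 16.9 and 50.0 for WT LSK-, and 48.1 and 76.7 for XistΔ/Δ LSK- (22.9 ± 5.48, limma adjusted p = 0.767). Fzd8, a WNT receptor (−16.8), and Vps13b (−15.4) followed at the same adjusted p. Without the block the lowest p belonged to Crispld2 (10.5), Snx33 (−11.8) and Ccnjl (−9.44), at a limma adjusted p of 1.

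The genotype difference was also compared between the cell types. The interaction was called for 0 promoters (0%) without the block, with 31 at an unadjusted p under 0.05, and for 0 with it, with 391. Zmynd11, a reader of methylated histone H3, had ranks of 45.9 and 47.6 for WT LSK+, 18.6 and 16.7 for XistΔ/Δ LSK+, 13.4 and 21.7 for WT LSK-, and 16.2 and 23.5 for XistΔ/Δ LSK- (−31.3 ± 8.29 with the block, limma adjusted p = 0.999). The other lowest p-values belonged to Cmklr1 and Ahr without the block and to Mrpl34 and Cst7 with it.

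For 31 genes, every XistΔ/Δ list and none of the WT lists held a promoter peak (0.213%), and the reverse was found for 0 genes. The 31 had a median list percentile of 18.9. With every list shortened to its 29829 strongest peaks the counts were 0 and 2. The homeobox gene Hoxb5, named after its values were seen, had list percentiles of 42.7, 53.8, 51.4 and 70.8 in the XistΔ/Δ libraries, and Mpeg1, which encodes a pore-forming protein of macrophages, had 59.4, 44.7, 37.2 and 31.2. The XistΔ/Δ lists were the longer ones, and the part of list length in these counts was not tested beyond the shortened lists.

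For width, limma called 0 of 10922 promoters (0%) in both comparisons and in the interaction, with and without the block. At an unadjusted p under 0.05 there were 505 for LSK+ minus LSK- and 226 for XistΔ/Δ minus WT, and 1009 and 492 with the block. The lowest p belonged to Rasgrp2, an activator of RAP1 in platelets and leukocytes, whose peak was 1330, 1310, 1340 and 1332 bp wide in LSK+ and 423, 337, 555 and 558 bp wide in LSK- libraries (1.47 ± 0.11 on the log2 scale with the block, limma adjusted p = 0.133). The groups did not overlap in these widths. Crebrf had 1574, 1206, 894 and 1265 bp against 365, 324, 474 and 362 bp, and Cacna1c went the other way, with 560, 203, 476 and 341 bp against 1411, 774, 1601 and 856 bp. For genotype the lowest p belonged to Rps6ka4 (0.75 ± 0.10 on the log2 scale with the block, limma adjusted p = 0.911), with 451 and 326 bp for WT LSK- and 1372 and 888 bp for XistΔ/Δ LSK- libraries. In the LSK+ libraries its peak was 1050 and 677 bp in WT and 1034 and 940 bp in XistΔ/Δ cells.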

How the data were processed

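The authors trimmed the reads with Trim Galore, aligned them to mm10 with Bowtie2 2.3.5.1, filtered on mapping quality and removed mitochondrial reads with SAMtools 1.10, and called peaks per library with MACS2 2.2.7.1 on paired fragments at a q-value of 0.01. Removal of duplicates and a shift for the Tn5 cut are not given in the sources used here. The deposited peak lists give a fold enrichment (ratio) over the local background, −log10 p, −log10 q, an integer score and the summit position. They hold no read counts, so no test on counts was made. The study lists the sequencing depth of each library, which was not used here.

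Peaks were assigned to the TSSs of protein-coding transcripts of GENCODE M21 (basic set). Peaks were ranked by −log10 p within each list. The summit pileup and the local background were solved from the deposited fold and −log10 p, which gave a solution for 100% of peaks. Groups followed the sample labels. Whole-library measures were compared by two-sided exact permutation tests, with labels exchanged within the other factor, and adjusted by Benjamini-Hochberg. Promoter ranks and log2 widths of genes with a peak in all 8 lists were fitted with limma 3.58.1 (R 4.3.3) on 4 groups without a block, and again with the replicate number as a block. Replicate numbers correspond to the sequencing run in the study's sequencing records, and deviations from group means correlated by 0.60 to 0.79 between libraries of the same number in all 6 pairs of groups, so the numbers pair the libraries. The solver and fits were also run on simulated data, for the fits with normal noise. This does not measure how stable the calls in the real libraries are.

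Named genes were the 10 with the largest difference in each direction among calls whose groups did not overlap, the 3 lowest p-values where nothing was called, the 10 strongest and 10 widest promoters, the 5 strongest divergent pairs, and the highest, middle, lowest and called members of each gene list, and a few genes that meet this rule are not reported here. Because the fit without a block called nothing, the rule was also applied to the blocked fit. The members and lists were chosen with earlier results of these data known. Alternatives were other distances, rankings, filters, list lengths and the removal of each library.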

Additional observations from a re-analysis of the deposited data

How the results depend on the processing

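The promoter against other and divergent against single differences over all libraries kept their direction and side of the threshold under the alternatives run. With every list shortened to its 29829 strongest peaks, 3 XistΔ/Δ minus WT differences changed sign: genes with a promoter peak (−230), the divergent minus single width (−2 bp) and the divergent minus single share with a peak (0.272 points). The list percentile difference between the genotypes kept its sign there but was 0.469 in place of 4.92 points. When 1 library was left out, with the lone library of its group assumed to vary like the others, the width difference ran from −38.8 to 95.2 bp for LSK+ minus LSK- and from −20.2 to 114 bp for XistΔ/Δ minus WT, and the promoter share for LSK+ minus LSK- from −1.19 to 7.49 points. The causes were not tested.

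For LSK+ minus LSK- promoter rank, the fit without a block called 0 promoters, 1 when a peak in at least 4 lists was enough and 619 with the replicate block. Alternatives of the blocked fit were added after seeing the data. They called 1095 promoters on normal scores, 133 on the percentile in the whole list, 936 with a peak in at least 4 lists, 330 with shortened lists, 297 when ranked by fold and 971 when ranked by summit pileup. Leaving out 1 library gave 43 to 707. The 20 promoters with the largest differences kept their direction in each alternative that tested them, with 323 values still called and 18 no longer called. Of the 41 called members of gene lists, 2 to 41 were still called. The block changed no other call. The 20 promoters were chosen from these same data for groups that did not overlap, so their kept direction is not independent support. Read depth was not used, and a missing peak in a short list does not show a closed promoter.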
